A study of Mus musculus with 8 samples.

Results

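The cytosolic ribosomal proteins are the protein components of the ribosomes that translate nuclear mRNAs. They were taken by gene symbol: Rpl or Rps with a number and at most 1 of the letters a, l, x and y, together with Rplp0, Rplp1, Rplp2 and Rpsa, without pseudogene names and without the Rps3a copies. This gave 83 of the 57180 genes in the deposited table. The values come from RNA sequencing of mouse regulatory T (Treg) cells, CD4 T cells that restrain immune responses, collected by flow sorting from different mice. Treg cells labelled chimera KO gave 3 libraries (KO1 to KO3), and Treg cells labelled chimera WT gave 5 libraries (WT1 to WT5). The labels state neither the deleted gene, the age, the strain nor how the chimeras were made, and the title of the series names copper and the suppressive capacity of Treg cells. Because the deleted gene is not named, the knockout could not be checked in these libraries.

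Each cytosolic ribosome has a small subunit, which reads the mRNA, and a large subunit, which joins amino acids and releases the chain through an exit tunnel. Most of its proteins are needed in equal numbers, and their mRNAs are among the most abundant in most cells. Their mRNAs typically begin with a run of pyrimidines, the 5′ terminal oligopyrimidine (5′TOP) tract, through which the kinase mTOR and the RNA-binding protein Larp1 control translation and mRNA stability. In T cells, growth after activation depends on making more ribosomes.

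Runs of C or T were looked for in the genomic sequence at the annotated starts of these genes. RefSeq promoter entries (GRCm38.p6) were found for 61 of the 83 members. Of the 77 members that passed the count filter described below, 57 had an entry. The windows below run from 40 bases before to 20 bases after the annotated start, 5′ to 3′ on the strand of the gene, and capitals mark every run of at least 6 C or T. The first 8 belong to members that were among those with the smallest p between KO and WT within the family. A run spans the annotated start in the windows of Rpl38, Rps21, Rps27 and Rpl35, which has the longest of them. In those of Rpl39, Rpl5, Rpl6, Rplp0 and Rpl11 the runs lie before or after the start, and Rps19 has none at the first of its annotated starts. For Rps21, which also has more than 1, the first is shown. A run in these windows describes the sequence and is not a mapped 5′TOP tract.
Rpl38: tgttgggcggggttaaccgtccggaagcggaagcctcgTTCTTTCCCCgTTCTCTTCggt
Rps21: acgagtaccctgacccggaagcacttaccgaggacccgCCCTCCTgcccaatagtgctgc
Rps27: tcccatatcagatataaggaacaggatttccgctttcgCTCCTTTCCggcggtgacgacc
Rpl39: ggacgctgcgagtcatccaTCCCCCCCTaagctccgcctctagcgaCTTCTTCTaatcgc
Rpl5: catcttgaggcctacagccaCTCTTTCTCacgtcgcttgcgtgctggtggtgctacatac
Rpl6: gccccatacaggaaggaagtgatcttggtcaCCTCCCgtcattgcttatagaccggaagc
Rplp0: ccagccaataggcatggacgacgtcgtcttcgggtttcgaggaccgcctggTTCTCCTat
Rpl11: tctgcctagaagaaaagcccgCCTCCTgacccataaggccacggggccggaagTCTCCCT
Rpl35: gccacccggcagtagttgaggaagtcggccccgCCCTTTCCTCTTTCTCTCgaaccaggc
Rps19: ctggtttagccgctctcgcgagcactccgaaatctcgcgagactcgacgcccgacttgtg

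These windows lie at chr11:114668540-114668599 (plus strand) for Rpl38, chr2:180257339-180257398 (plus strand) for Rps21 and chr3:90213629-90213688 (minus strand) for Rps27. The Rpl39 window is chrX:37085203-37085262 on the minus strand. On chromosome 5, Rpl5 has chr5:107900488-107900547, Rpl6 has chr5:121204461-121204520 and Rplp0 has chr5:115559427-115559486, all on the plus strand. The Rpl11 window is chr4:136053374-136053433 and that of Rpl35 is chr2:39005112-39005171, both on the minus strand. The Rps19 window is chr7:24884552-24884611 on the plus strand. Each window holds the last bases of the promoter and the first bases of the first exon.

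Across the 57 tested members with an entry, 41 (71.9%) had a run of at least 6 C or T within 20 bases of an annotated start, read on the strand of the gene. The share was 44.1% of 68 genes for mitochondrial ribosomal proteins, which serve the separate ribosome of the mitochondrion, and 41.7% of the 9086 tested genes with an entry. Runs of at least 8 were present in 29 members (50.9%), against 19.1% of the mitochondrial set and 19.6% of tested genes. Over all 27025 genes with an entry the shares were 41.2% for runs of 6 and 18.4% for runs of 8. The motif CTTTC within the same 40 bases was found in 18 members (31.6%) and in 6.30% of tested genes, and the longer CTCTTTC, which contains it, in 7 members (12.3%) and 0.880% of tested genes. Over all genes with an entry these motifs had shares of 6.44% and 0.662%. A motif of the ETS type, CCGGAAG on either strand within the 300 bases of the entry, was found in 24 members (42.1%), in 36.8% of the mitochondrial set, in 20.5% of tested genes and in 9.93% of all genes with an entry. TATAAA, searched between 40 and 20 bases before the start on the strand of the gene, was found in 0 members and in 0 of the mitochondrial set. Its share was 1.22% of tested genes and 2.25% of all genes with an entry.

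**Figure D1:**
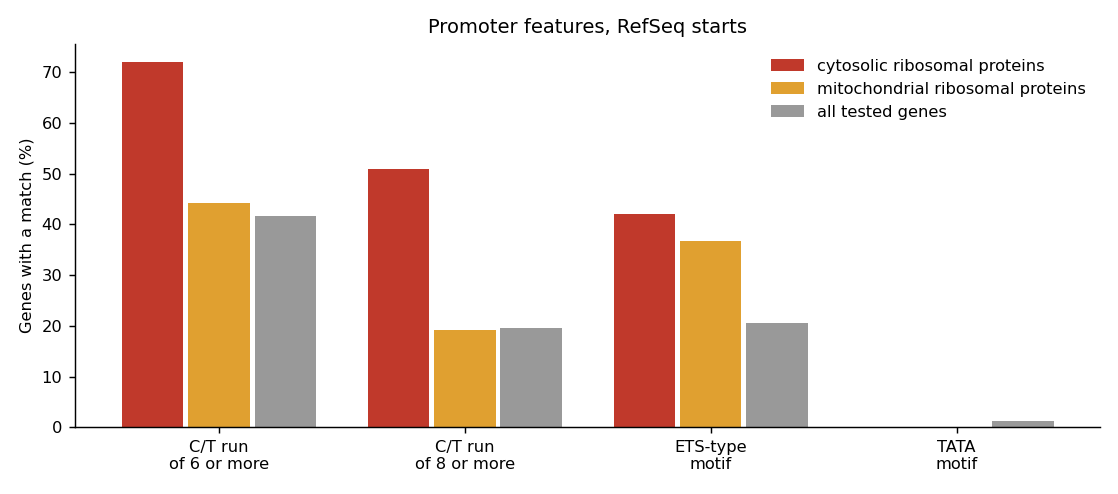
Share of genes (%) with each sequence feature at the RefSeq start for tested cytosolic ribosomal protein genes (57), tested mitochondrial ribosomal protein genes (68) and all tested genes (9086). C/T runs were present in 71.9% and 50.9% of the cytosolic set, above both other sets, while the ETS-type motif was close in the cytosolic (42.1%) and mitochondrial (36.8%) sets.

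The depth of these libraries differed between the groups. Totals were 4.31 to 8.48 M (mega counts) in KO libraries and 10.5 to 18.0 M in WT libraries. WT4 and WT5 stood apart: 8201 and 9422 genes reached 10 counts in them, against 12398 to 14245 in the 3 KO libraries and 12660 to 14009 in WT1 to WT3. All 7 Treg marker genes had counts in both groups, and their summed normalised CPM (CPM, counts scaled to library size, after edgeR's trimmed mean, TMM, scaling) was 787 to 2825 in KO libraries and 2822 to 6281 in WT libraries. Single markers varied within these sums. Foxp3 was at 26.6, 2.69 and 24.2 in KO1 to KO3, against 11.9, 36.6, 41.9, 3.09 and 1.26 in WT1 to WT5. Ikzf2 was at 81.1 in WT4, against 1089 to 4634 in the other WT libraries and 420 to 1664 in KO libraries. The highest genes of the Treg list in WT4 were Cd3e (1386), Tnfrsf18 (1356) and Ctla4 (934). That list includes Cd3e and Cd4, which are not limited to Treg cells. The 8 B cell markers summed to 132 to 213 in KO libraries and to 231 to 6195 in WT libraries, with WT4 highest. The 8 CD8 T and NK markers summed to 4.49 to 63.2 in KO libraries, where Gzma, Klrd1, Ncr1 and Prf1 were at 0, and to 48.4 to 4276 in WT libraries, where Ncr1 was at 0 and WT4 was highest. The 8 myeloid markers summed to 43.5 to 87.6 in KO libraries, with Tyrobp at 0, and to 68.5 to 1699 in WT libraries, with WT4 highest. The 7 erythroid markers summed to 0.449 to 7.34 in KO libraries, with Hbb-bt at 0, and to 0 to 9102 in WT libraries, with Slc4a1 at 0 and WT5 highest. The part of these other cells in the results was not tested, and values without WT4 and WT5 are given beside several of them.

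The family as a whole took a like share of each group's RNA. The 83 genes held 3.16, 6.02 and 5.17% of all counts in KO1 to KO3, against 3.76, 3.15, 5.19, 8.75 and 4.56% in WT1 to WT5. The means were 4.78 ± 1.47% in KO (SD, n = 3) and 5.08 ± 2.19% in WT (SD, n = 5), so the difference of −0.30 percentage points was well inside the spread of either group. KO1 and WT2 were lowest, WT4 was highest, and the ranges overlapped almost fully. Without WT4 and WT5 the difference was 0.75 percentage points, and with single libraries left out it ran from −0.92 to 0.62. In TPM (counts corrected for gene length and brought to the same total in each library) the share was 11.2 ± 3.16% in KO (SD, n = 3) and 10.2 ± 2.37% in WT (SD, n = 5). In bulk libraries, fewer cells of a type and less RNA per cell cannot be told apart.

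TMM scaling changed that picture. Its factors were 1.36, 1.49 and 1.32 in KO libraries, against 1.15, 1.09, 1.08, 0.400 and 0.689 in WT libraries, so the levels of WT4 and WT5 were raised and those of the others lowered. After scaling, the family summed to 23406, 41109 and 39944 normalised CPM in KO1 to KO3, against 33051, 29161, 48738, 220937 and 67100 in WT1 to WT5. WT4 alone stood several times above every other library.

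**Figure D2:**
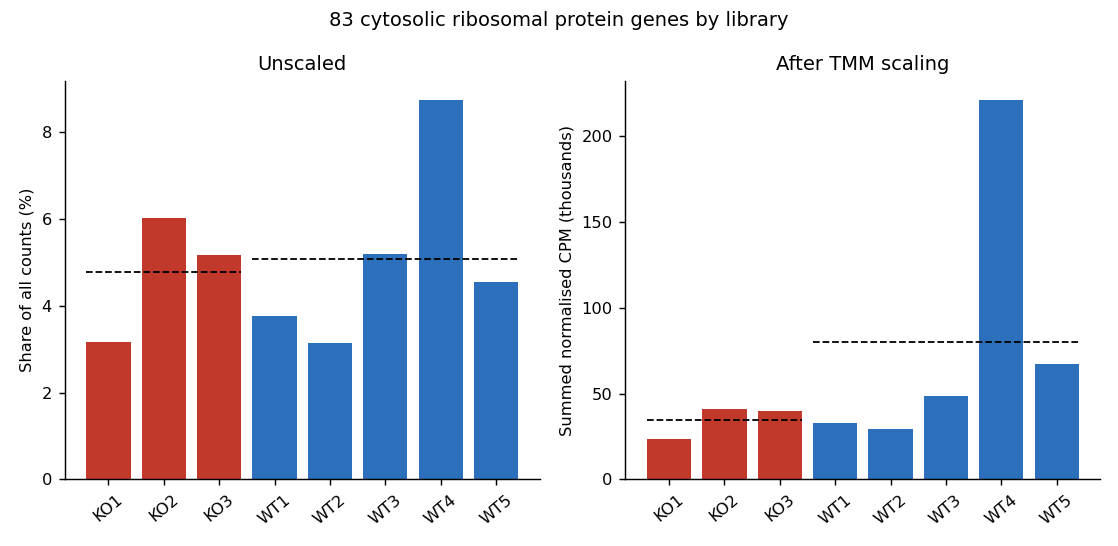
Summed level of the 83 cytosolic ribosomal protein genes in the 3 KO and 5 WT libraries, as a share of all counts (%, left) and as normalised CPM after TMM scaling (right, drawn in units of 1000 CPM); dashed lines are group means. The shares overlap (3.16 to 6.02% in KO, 3.15 to 8.75% in WT), while the scaled sum of WT4 (220937 CPM) sets the WT mean apart.

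In the edgeR quasi-likelihood fit with TMM scaling, 77 members had enough counts to be tested. None of them, and 0% of all 14755 genes tested, had a Benjamini-Hochberg adjusted p under 0.05. In simulated counts at the spread of these libraries, the fit had little power for genes outside the family. Power for the members was not simulated, and they varied less among libraries (median edgeR dispersion 0.61, against 1.36 for all genes). A member that misses the threshold is not shown to be alike in both groups. At an unadjusted p under 0.05, 8 members were lower in KO (10.4%; 6.43% of all genes), among them Rpl11, Rpl18, Rpl3, Rpl4, Rpl6, Rplp0 and Rps3, with log2 changes from −2.44 to −1.80. No member was higher at that level, which 2124 of the 14755 genes reached in all, 949 of them lower and the rest higher. DESeq2 gave adjusted p-values to 72 members and called the same 8 lower, which is 11.1% of them and equals the 11.1% of all genes it called lower. It called 0 members higher, against 7.13% of all genes. Every KO library lay below every WT library for 4 members (5.19%; 4.49% of all genes), among them Rpl3, Rpl6 and Rpl7, and above every WT library for 0 members, against 13.2% of all genes.

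By sign, 76 of the 77 tested members (98.7%) had a negative log2 change in KO relative to WT, against 56.8% of all genes. The median was −1.13 for the members and −0.42 for all genes. Small subunit members had a median of −1.15 (31 of 31 negative) and large subunit members of −1.10 (45 of 46 negative). The mitochondrial ribosomal proteins had a median of −1.80, with 71 of 77 negative. These medians followed the scaling and the library set. With plain library totals the members' median was −0.04 (40 negative) and that of all genes 0.21. Without WT4 it was −0.30, and without WT4 and WT5 it was −0.07 (45 negative), beside −0.15 for all genes. When only genes with a mean of at least 5 CPM were kept, the members had a median of −0.66 (70 negative) and all genes −0.59.

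**Figure D3:**
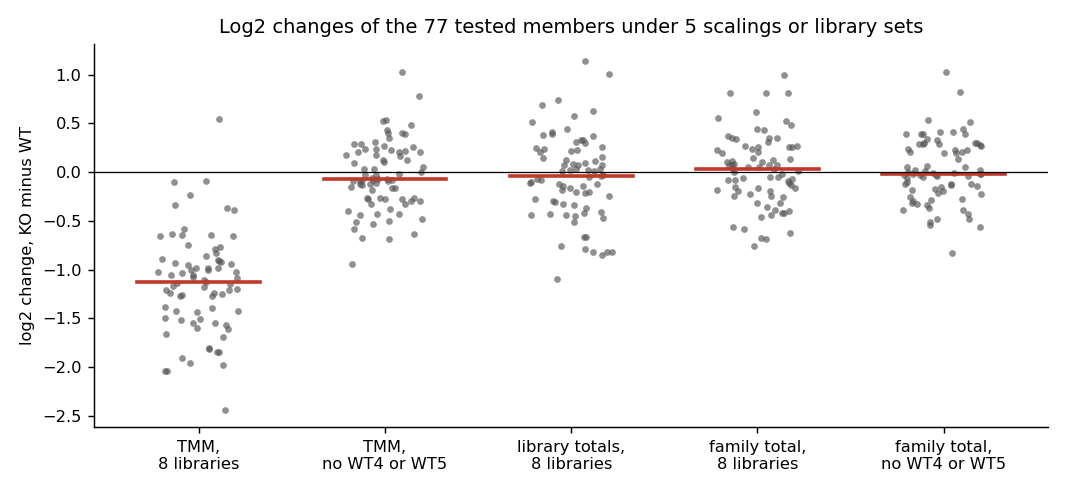
Log2 change (KO minus WT) of each of the 77 tested members under 5 combinations of scaling and libraries; red lines are medians and horizontal jitter has no meaning. The median is −1.13 with TMM over 8 libraries (values from −2.44 to 0.54) and between −0.07 and 0.03 in the other 4 settings. In the 2 settings with the family total as library size, a median near 0 follows from the scaling itself.

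The composition of the family was therefore examined with the summed counts of the members as library size, so that each value is a member's share of ribosomal protein counts. The standard deviation of a member's log2 share over the 8 libraries had a median of 0.35, against 1.01 for 28 mitochondrial ribosomal proteins relative to their own total. Other genes with a total count at least that of the lowest tested member had a median of 1.28 (3183 genes, relative to their own total). Relative to library totals the medians were 0.61 for the members, 0.998 for the mitochondrial set and 1.28 for the other genes, so centring on their own total lowered the value of the members alone among these sets by over 0.1. The members' profile correlated between pairs of libraries with a Pearson r of 0.71 to 0.91 (28 pairs, median 0.83, across 77 genes), against 0.21 to 0.71 (median 0.52) for the mitochondrial set. These are descriptions across genes, which are not independent replicates, and they depend on the range of levels within each set. The sets were not matched for count level, and its part in these differences was not tested. Small subunit genes held 47.1, 48.9 and 48.9% of the family's counts in KO1 to KO3, against 45.1, 45.0, 49.8, 45.9 and 46.5% in WT1 to WT5. The 10 members with the highest shares held 29.3 ± 1.18% in KO (SD, n = 3) and 30.1 ± 1.28% in WT (SD, n = 5).

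On the length-corrected TPM scale, the highest members included Rps27, Rps29, Rps14, Rpl41, Rpl32, Rps18, Rpl37a, Rps27a, Rps19, Rpl23a and Rpl38. Rps27, a zinc-binding protein of the small subunit, led with 12004 ± 3996 TPM in KO (SD, n = 3) and 8248 ± 2863 TPM in WT (SD, n = 5), and the groups overlapped. The mean TPM over all libraries ran from 62.2 for Rpl12 to 9657 for Rps27, with a median of 946. The steadiest members were Rpl23a, which lies at the exit tunnel, and Rps19, in humans the gene most often mutated in Diamond-Blackfan anaemia: their shares of the family differed at most 1.35-fold and 1.33-fold between any 2 libraries. For 34 of the 77 members this ratio was under 2, and for 15 it was over 3.

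Relative to the family total, 0 members and 0.00678% of all genes (1 gene, the Rps3a copy Rps3a3, outside the family rule) had an adjusted p under 0.05 in edgeR's quasi-likelihood test. At an unadjusted p under 0.05 there were 0 members against 6.52% of all genes. DESeq2 on the same scale called 0 members, against 0.547% of all genes lower and 0.907% higher. The members split into 35 negative (45.5%; 44.6% of all genes) and 42 positive, with a median of 0.03, which this scaling holds near 0, beside 0.22 for all genes, and their log2 changes ran from −0.76 to 0.998. Every KO library lay above every WT library for Rpl17 and Rps12 (2.60%; 16.5% of all genes) and below every WT library for Rpl11 (1.30%; 0.928% of all genes).

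Of the members with a higher share in KO by value, those with the smallest p were Rpl38, Rps21, Rpl39, Rps27 and Rpl5, none past the threshold (edgeR adjusted p from 0.80 to 0.87). Rpl38, a large subunit protein whose loss in mice disturbs the axial skeleton, held 0.93, 1.42 and 1.55% of the family in KO1 to KO3, against 0.55, 0.70, 0.96, 0.82 and 0.69% in WT1 to WT5. KO2 and KO3 stood above all WT libraries and KO1 lay just under WT3. The log2 change was 0.81 with a standard error of 0.56 (edgeR adjusted p = 0.80). Rps21, a small protein of the small subunit, held 0.32, 0.81 and 0.67% in KO1 to KO3, against 0.33, 0.19, 0.37, 0.29 and 0.33% in WT1 to WT5. Here too KO2 and KO3 were high and KO1 lay within WT, and the log2 change was 0.998 with a 95% interval from −0.49 to 2.49. Rpl39, a short protein of the exit tunnel, held 1.35, 2.05 and 1.60% in KO1 to KO3, against 1.07, 1.01, 1.88, 0.81 and 0.65% in WT1 to WT5. Only WT3 among the WT libraries reached the KO range. The log2 change was 0.62, and 0.34 without WT4 and WT5.

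Rps27 held 4.75, 5.57 and 5.29% of family counts in KO1 to KO3, against 3.94, 3.51, 5.25, 3.40 and 3.01% in WT1 to WT5. WT3 again lay among the KO libraries. Its log2 change within the family was 0.44 with a standard error of 0.40, and 0.30 without WT4 and WT5. On the TMM scale the same gene had −0.65, and its sign turned with library totals (0.39) and without WT4 and WT5 (0.21). Rpl5, which with Rpl11 and the 5S rRNA forms a particle that can bind Mdm2, held 0.38, 0.51 and 0.87% in KO1 to KO3, against 0.32, 0.74, 0.29, 0.04 and 0.29% in WT1 to WT5. WT4 was far below the other libraries, a 23.1-fold range over the 8. Its log2 change within the family was 0.81, and became 0.42 without KO3, 1.33 without WT2, 0.52 without WT4 and 0.39 without WT4 and WT5. Rpl5 was the member with a positive log2 change on the TMM scale (0.54, adjusted p = 0.65 by edgeR), which was −0.01 without KO3.

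Of the members with a lower share in KO by value, those with the smallest p included Rpl6, Rplp0, Rpl11 and Rpl3, again none past the threshold (edgeR adjusted p from 0.82 to 0.85). Rpl6, of the large subunit, held 0.99, 0.51 and 0.47% in KO1 to KO3, against 1.33, 1.39, 0.78, 0.75 and 1.29% in WT1 to WT5. KO2 and KO3 were below all WT libraries and KO1 was within the WT range, for a log2 change of −0.76 and a standard error of 0.61, and of −1.18 without KO1. Rpl11, the partner of Rpl5, held 0.54, 0.45 and 0.38% in KO1 to KO3, against 0.57, 0.64, 0.78, 0.78 and 0.86% in WT1 to WT5. These groups did not overlap, though KO1 and WT2 lay close, and the log2 change was −0.68 with a 95% interval from −2.01 to 0.66.

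The ribosomal stalk, which draws elongation factors to the ribosome, is built on Rplp0 with Rplp1 and Rplp2. Rplp0 held 1.57, 0.87 and 0.49% of the family in KO1 to KO3, against 1.17, 0.91, 1.35, 2.64 and 1.82% in WT1 to WT5. KO3 was lowest and WT4 highest, and the groups overlapped (log2 change −0.69, standard error 0.61). The value rested on few libraries: it was −1.21 without KO1, −0.37 without KO3, −0.42 without WT4 and −0.22 without WT4 and WT5. Rplp1 and Rplp2 had log2 changes of 0.11 and 0.35 within the family, with adjusted p-values of 0.98 and 0.93 by edgeR. Rpl3, at the peptidyl transferase centre, held 1.04, 0.60 and 0.67% in KO1 to KO3, against 1.15, 1.20, 0.86, 1.21 and 1.32% in WT1 to WT5. KO2 and KO3 again lay below every WT library, and KO1 between WT3 and WT1. With KO1 as the only KO library, a setting chosen after seeing the data, the log2 changes within the family were 0.33 for Rpl38, 0.086 for Rps21, 0.31 for Rpl39 and 0.19 for Rpl5. They were −0.17 for Rpl6, −0.44 for Rpl11, −0.0062 for Rplp0 and −0.14 for Rpl3.

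**Figure D4:**
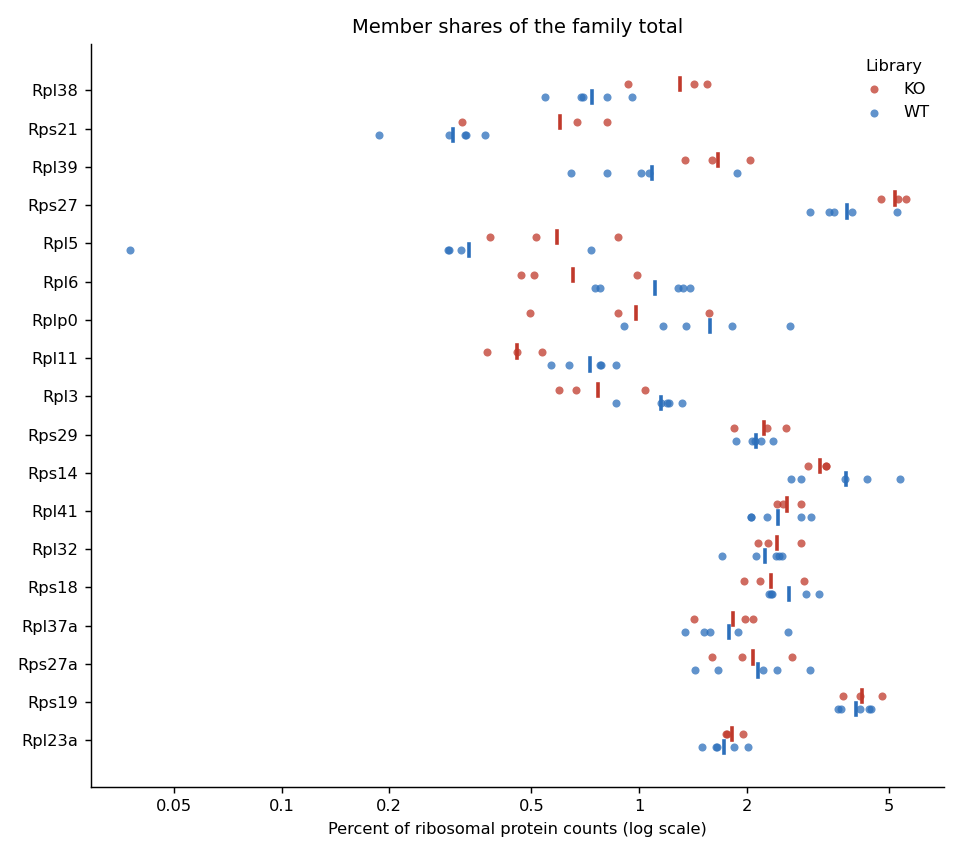
Share of ribosomal protein counts (%, log scale) held by the members named above, in the 3 KO (upper) and 5 WT (lower) libraries; points are libraries and short bars are group means. Rpl11 is the only plotted member whose groups do not overlap (0.38 to 0.54% in KO, 0.57 to 0.86% in WT), and WT4 lies far out for Rpl5 (0.04%).

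Members with known roles in the small subunit lay close to 0 within the family: 6 of 9 had a negative and 3 a positive log2 change, none past the threshold, with a median of −0.05. Rps6, the substrate of the S6 kinases below mTOR, had 0.01 with a standard error of 0.50. Rps19 had 0.06, Rps2 had 0.05, Rps23, which lies at the decoding centre, had −0.05, and Rps26, at the mRNA exit, had −0.09. Rps7, Rpsa and Rps3, which lines the mRNA entry, had −0.19, −0.15 and −0.47, and Rps27a, made as a fusion with ubiquitin, had −0.05. Of the 13 large subunit members with such roles, 5 were negative and 8 positive, with a median of 0.09 and none past the threshold. Rpl4, which lines the exit tunnel, had −0.42, and Rpl10, which joins the large subunit last, had −0.40 with a standard error of 0.70. Rpl22, known for its part in the development of αβ T cells in mice, had 0.36, Rpl23a had 0.07 and Rpl41, the shortest of them, had 0.09. The remaining highly expressed members, Rps29, Rps14, Rpl32, Rps18 and Rpl37a, had values from −0.24 to 0.11.

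Members that encode short proteins had higher values within the family in part of the KO libraries. Across the 77 members, the log2 change within the family was lower for longer proteins, with the length taken from the longest coding sequence of each gene in GENCODE M21 (Pearson r = −0.49 on log2 length, Spearman rho = −0.50, across genes). With the gene length of the deposited table, r was −0.13. The longest coding sequence can exceed that of a gene's usual protein. By that coding length, the 25 shortest members, of 46 to 133 residues, had a median of 0.26, with 21 positive. The 25 longest, of 194 to 419 residues, had a median of −0.13, with 10 positive. The shortest 25 held 29.5, 40.8 and 40.1% of the family's counts in KO1 to KO3, against 29.6, 29.0, 35.6, 31.7 and 29.9% in WT1 to WT5. The longest 25 held 35.5, 26.9 and 27.9% in KO1 to KO3, against 35.0, 34.2, 29.6, 34.7 and 32.7% in WT1 to WT5. KO1 was thus like WT1 and WT2, and WT3 lay between them and the other KO libraries. Without KO2 and KO3, the 2 libraries with the lowest totals (4.57 and 4.31 M), r was 0.10, whereas without WT4 and WT5 it was −0.52. The part of depth and RNA quality in this relation was not tested.

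**Figure D5:**
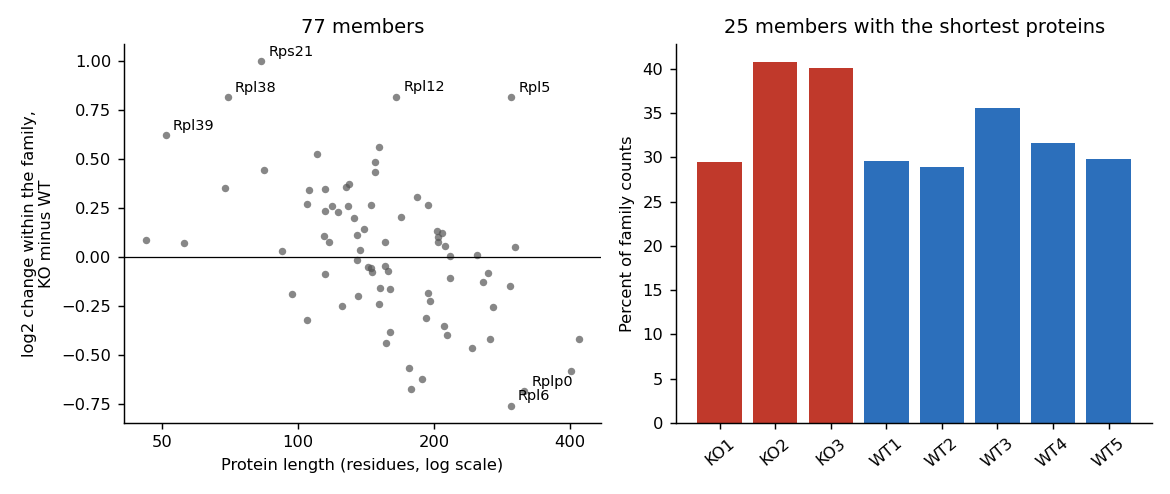
Left, log2 change within the family (KO minus WT) against protein length (residues of the longest coding sequence, log scale) for 77 members. Right, percent of family counts held by the 25 members shortest by that length in each library. The shares of KO2 and KO3 (40.8 and 40.1%) are above all others, and KO1 (29.5%) is level with WT1, WT2 and WT5.

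Members with a C/T run of at least 8 at the start had a median log2 change within the family of 0.13 (29 members), against −0.05 for the 28 without one. For CTTTC the medians were 0.22 (18 members) and −0.05 (39 members), and for CCGGAAG 0.06 (24 members) and 0.03 (33 members). No test was made of these differences.

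Several members have close relatives in the genome, and the balance within 4 such pairs could be tested as the percent of the pair's counts from the less typical gene. Rps27l made up 6.45, 7.47 and 5.71% of Rps27l plus Rps27 in KO1 to KO3, against 7.82, 8.65, 7.91, 12.8 and 18.1% in WT1 to WT5. All KO libraries lay below all WT libraries, though KO2 and WT1 were close. The means were 6.54 ± 0.89% in KO and 11.1 ± 4.43% in WT (exact two-sided permutation test, p = 0.125, 0.286 after adjustment over 4 pairs; the smallest p that the 56 splits allow is 0.0179). The difference of −4.51 percentage points became −2.76 without WT5, −1.58 without WT4 and WT5 and −2.95 with counts divided by gene length. Rpl22l1, which is outside the name rule, made up 64.4 ± 6.63% of its pair with Rpl22 in KO (SD, n = 3) and 75.8 ± 11.7% in WT (SD, n = 5; exact permutation p = 0.214), and the difference of −11.4 percentage points became −4.76 with counts divided by gene length. Rpl36al made up 38.9 ± 13.4% of its pair with Rpl36a in KO (SD, n = 3) and 50.9 ± 13.4% in WT (SD, n = 5; exact permutation p = 0.196), and the difference of −11.9 percentage points became −19.3 without KO1 and −6.21 without KO3. For Rpl7l1 with Rpl7 the shares were 2.67 ± 1.47% in KO (SD, n = 3) and 4.85 ± 4.71% in WT (SD, n = 5; exact permutation p = 0.464), and the difference of −2.18 percentage points became −1.34 without KO3, −0.64 without WT4, −1.19 without WT5 and −0.78 with counts divided by gene length, and changed sign without WT4 and WT5. No pair passed the exact permutation test at 0.05.

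The other 6 members stayed under the count filter. Rps4l was at 0 in every library, and a count of 0 is compatible with up to 3 counts in each. Rpl10l had 3 counts in KO2 and none elsewhere, and Rpl32l had 2 counts in KO2 and 1 each in WT1 and WT3. Rpl3l had 0 counts in KO and 1, 1 and 2 counts in WT1 to WT3, while Rpl6l had 5 and 6 counts in KO2 and KO3 and 2 counts in WT3. Rpl39l, a relative of Rpl39 known from testis, had 9 counts in KO1, against 61 counts in WT1 and 1 count in WT3.

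Reads of ribosomal protein mRNAs can also be assigned to their many processed pseudogenes, so levels of single members carry that uncertainty. Rows with pseudogene symbols of a member held over 10% of the counts of member and pseudogenes together for 11 of the 77 members and under 1% for 51. Pseudogenes under other symbols were not counted, so all shares in this paragraph are lower bounds. The share was 45.4% for Rps23, 41.1% for Rpl10, 36.8% for Rps2, 31.7% for Rps12 and 11.9% for Rpl36a. It was 4.35% for Rpl38, 7.62% for Rpl5 and under 1% for Rps21, Rpl39, Rps27, Rpl6, Rpl11, Rplp0 and Rpl3. Rows with ribosomal pseudogene symbols together held 0.265 ± 0.068% of all counts in KO (SD, n = 3) and 0.220 ± 0.078% in WT (SD, n = 5).

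The members were compared with the family's median log2 CPM over the 8 libraries, which is built from the members themselves. All but 2 of the 77 had a Pearson r of at least 0.70 with it, and without WT4 and WT5 the number was 51, so part of the likeness rested on those libraries. Such an r is not particular to the family: Cd74 (0.86), Tyrobp (0.84) and Cd79a (0.83) reached it too, whereas Nkg7 (0.47) and Foxp3 (−0.57) did not. The share of all other genes that reached it is not given here. The 2 members under 0.70 were Rpl5 (r = −0.26) and Rpl12 (r = 0.21), which lies at the base of the stalk. Rpl12 held 0.30, 0.14 and 0.02% of the family in KO1 to KO3, against 0.14, 0.09, 0.11, 0.03 and 0.05% in WT1 to WT5. Both groups held high and low libraries, and the overall range was 18.2-fold. Among 8066 other named genes whose log2 CPM averaged 3 or more, the patterns most like the family were those of Snrpg, a core protein of spliceosomal particles (r = 0.98), H3f3a, a histone H3.3 gene (0.98), the thymosin gene Tmsb10b (0.98), the 5′TOP mRNA Tpt1 (0.98) and the thymosin gene Tmsb10 (0.97). Without WT4 and WT5 these values were 0.94 for Snrpg, 0.88 for H3f3a, 0.98 for Tmsb10b, 0.90 for Tpt1 and 0.76 for Tmsb10.

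Ribosomal proteins that the name rule leaves out also had negative values on the TMM scale: Rps3a1, Rack1 and Fau had log2 changes of −2.21, −1.09 and −1.25, with none past the threshold. Rps3a1, of the small subunit, was the lowest of them within the family too (−1.06, standard error 0.50, edgeR adjusted p = 0.76). It had 356, 431 and 517 normalised CPM in KO1 to KO3, against 948, 585, 1499, 4813 and 2225 in WT1 to WT5. The KO libraries thus all lay below the WT libraries, as for 4.49% of all genes tested.

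Of 15 other mRNAs with a known 5′TOP tract, 14 had a negative log2 change on the TMM scale (median −1.21) and 9 did within the family (median −0.30), with 0 past the threshold in either direction. Eef2, the elongation factor that moves the ribosome along the mRNA, was the exception. Its level was 3115, 4705 and 7964 normalised CPM in KO1 to KO3, against 1667, 1967, 2198, 1436 and 2138 in WT1 to WT5. Every KO library lay above every WT library, as was so for 13.2% of all genes tested. The log2 change of Eef2 was 1.48 (standard error 0.40, edgeR adjusted p = 0.32), and 1.89 relative to the family total (adjusted p = 0.76). Eef1a1, which brings aminoacyl-tRNA to the ribosome, and Tpt1 had −1.50 and −0.96 on the TMM scale, and −0.30 and 0.05 within the family.

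Among 12 genes of the mTOR and Larp1 arm that acts on 5′TOP mRNAs, 11 were negative on the TMM scale and 8 relative to the family total, with 0 past the threshold. Rheb, the GTPase that activates mTOR, had −1.70, Eif4e, the cap-binding protein, had −2.53 and Rps6kb1, an S6 kinase, had −1.50 on the TMM scale, with standard errors from 0.94 to 1.24. Of 52 genes for ribosome assembly, 39 were negative on the TMM scale and 30 relative to the family total, again with 0 past the threshold. The highest were Nop10, a core protein of H/ACA particles (−1.98 on the TMM scale), the exonuclease Xrn2 (−1.73) and nucleolin, Ncl (−2.02). Of 7 tested chaperones that escort single ribosomal proteins, 5 were negative on the TMM scale and 0 passed the threshold. Bccip, Nap1l1 and Aamp had −3.67, −2.37 and −2.18 on that scale.

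The list of growth and nucleolar stress regulators holds Myc and related genes beside Trp53, Mdm2 and others. Free Rpl5 and Rpl11 are known to act on Trp53 by binding Mdm2. The list had 9 tested genes, 5 of them negative on the TMM scale and 2 relative to the family total. None passed the threshold. Cdkn1a, a Trp53 target that halts the cell cycle, had 324, 384 and 380 normalised CPM in KO1 to KO3, against 57.7, 93.2, 116, 9.13 and 45.6 in WT1 to WT5. All KO libraries lay above all WT libraries, as they did for 13.2% of all genes tested. The log2 change of Cdkn1a was 2.50 (standard error 0.76, edgeR adjusted p = 0.32), and 2.76 relative to the family total (adjusted p = 0.76). Mdm2 and Mdm4 had −1.40 and −0.89 on the TMM scale, and their groups overlapped.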

How the data were processed

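RNA of sorted mouse Treg cells was sequenced from 3 KO and 5 WT libraries made with a low-input full-length kit that does not mark strand, per the labels' protocols. The values the authors deposited are expected counts, estimated reads per gene without scaling (91.1% of the non-zero values of tested members were not whole). Per the submitters' processing notes, the tools were RSEM, HISAT2, StringTie, fastp and DESeq2 and the build was mm10, with no roles stated; the annotation is not stated there. The deposited gene length, in bases, gave the TPM computed here. The authors' group means were not used.

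Counts were rounded and tested in edgeR 4.0.16 (R 4.3.3; filterByExpr with a minimum count of 10, TMM, quasi-likelihood, KO minus WT, two-sided, Benjamini-Hochberg over all genes tested). A second fit used the summed counts of the members as library size. Standard errors were derived from the log2 change and its F statistic. Alternatives used DESeq2 1.42.0, limma-voom (limma 3.58.1), other scalings and filters, a replicate block and left-out libraries. The fits were tested on simulated data, where hardly any changed genes were recovered at the spread of these libraries and most large changes were at a lower spread. The changed genes were all drawn from outside the family. Coordinates and coding lengths came from GENCODE M21, sequences from RefSeq. Totals of 4.31 to 18.0 M counts limit low genes. Floors cover counting error only, whereas the intervals and standard errors of edgeR include the variation among libraries. Libraries of a group differed by at least 58.3 in chi-square per degree of freedom. Which mouse gave which library is not in the labels, so p-values cover the variation among these libraries, part of which may be technical. The members and lists were chosen with earlier results of these data known. The rule named the 12 members highest in TPM, up to 5 a direction by p within the family, members under the filter, members of the role lists, the pairs, the 3 highest genes of each other list and the 5 genes most like the family. Rpl12, Rpl17, Rps12, Rps3a3, Fau and the windows shown were chosen after their values were seen. Some genes that the rule names are left out of the text and figures.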

Additional observations from a re-analysis of the deposited data

Results flagged for a closer look

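Among 32 values tested for a library far from the rest of its group of 5 (Dixon's test at the 95% level, which flags about 1 group in 20 by chance), 1 stood out. Rps3 held 1.425% of family counts in WT5, above the other 4 WT libraries.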

How the results depend on the processing

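No member was called by edgeR or limma-voom under the scalings, filters and left-out libraries tried. On the TMM scale, 0 genes were called in all; 1 was called with library totals, 1 without a filter, 1 at a mean of at least 5 CPM, 22 with limma-voom and 2421 with DESeq2, which called 8 members. The 76 members with a negative log2 change became 40 with library totals, 45 without WT4 and WT5 and 47 with a replicate block. The members' median of −1.13 became −0.19 with limma-voom, −0.11 with the replicate block and −1.78 with DESeq2's size factors, and ranged from −1.32 to −0.30 when single libraries were left out. The 1 gene called within the family became 18 without a filter, 202 with DESeq2 and 0 with the replicate block, without WT4 and WT5, without KO2 and KO3 (chosen after seeing the data) and without WT2 and WT3 (whose library names in the labels begin with FY), and ranged from 0 to 1 with single libraries left out. Rps27 on the TMM scale (−0.65) turned to 0.39 with library totals, 0.21 with limma-voom, 0.21 with the replicate block and 0.21 without WT4 and WT5, and ranged from −0.86 to 0.090 without single libraries. Rpl5 on that scale ranged from −0.0054 to 0.84 without single libraries and was −0.81 without KO2 and KO3. The pair differences turned to 1.20 percentage points for Rpl7l1 without WT4 and WT5 and to 2.87 for Rpl36al without KO2 and KO3. Same-numbered KO and WT libraries deviated together with r of 0.02, 0.02 and 0.05, beside −0.065 to 0.021 for libraries of unlike number. Such small values cannot decide whether the numbers pair the libraries, as the labels do not link libraries to mice. The replicate block changed no call of a member. The cause of these shifts was not tested. With totals of 4.57 and 4.31 M counts in KO2 and KO3, members of few counts could not be compared.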
